A study of Mus musculus with 14 samples.

Results

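The AP-1 and immediate early factors described here are 10 genes, Fos, Fosb, Fosl1, Fosl2, Jun, Junb, Jund, Atf3, Egr1 and Maff, taken by their gene names from the 30503 genes of the deposited count table. All 10 passed the filter on low counts, as did 17358 genes in all. The transcriptomes of 14 clones were sequenced in bulk, and each clone descended in culture from 1 tdTomato+ skeletal cell of mouse femur bone marrow. Fgfr3-WT clones (n = 5) came from Fgfr3-creER; R26R(tdTomato/+) mice at postnatal day 23 (P23), the P28 clones (n = 5) from Fgfr3-creER; Trp53fl/fl; R26R(tdTomato/+) mice at postnatal day 28, and the P4M clones (n = 4) from mice of the latter genotype at 4 months. All mice received tamoxifen at P21, so that creER, driven by Fgfr3, turned on the tdTomato reporter in the cells of all 3 groups. By their labels, the Fgfr3-WT and P28 clones were at passage 8 and the P4M clones at passage 6 to 8. The methods of the study give a range of passages for all knockout clones together. The study also reports that knockout clones grew faster and that wild-type clones needed more time to reach the same passage. Time in culture and growth rate therefore cannot be told apart from genotype here, and their part in the results was not tested. The legends of the study count the samples of a group once as clones and once as mice, and the labels do not tie a clone to an animal, so p-values measure the spread between clones.

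The AP-1 factors are basic leucine zipper proteins that bind DNA as dimers, usually of a FOS with a JUN protein. Serum and growth factors switch on Fos, Jun and Egr1 within minutes through MAP kinases, serum response factor (SRF) and cyclic AMP-responsive factors, and the transcripts decay fast, which is why they are called immediate early genes. In the skeleton the FOS proteins act on osteoblasts and osteoclasts, and mice that overproduce Fos develop bone tumors. The question the groups address is how loss of p53 in Fgfr3+ cells, and the time that passes after it, changes the transcriptome of the clones. No Fgfr3-WT clones came from mice as old as those of the P4M group. P4M against Fgfr3-WT therefore joins genotype with the age of the mouse. P4M against P28 joins the time since p53 loss with the age of the mouse and with the labelled passage. The parts of age and passage were not tested.

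Total counts were 25688946 to 38958693 in Fgfr3-WT, 37606033 to 48648618 in P28 and 43757832 to 52857424 in P4M clones. Trp53 stood at 49.9 to 68.2 CPM (read counts scaled to the TMM-adjusted total of the clone) in Fgfr3-WT, at 2.18 to 2.84 in P28 and at 1.72 to 2.37 in P4M clones, as the labels require. The column headers of all Fgfr3-WT libraries carry the number 1303 and those of all cKO libraries 2963. What this number stands for is not stated. If it marks a batch, batch and genotype cannot be told apart, whereas P28 and P4M share a number. Of the 9 skeletal stromal markers, Pdgfrb stood at 233 to 621 CPM in all clones, but Col1a1, the chain of type I collagen, ranged from 1.45 to 1029 CPM in Fgfr3-WT against at least 7377 CPM in each cKO clone. The summed level of those 9 markers was 424 to 6489 CPM in Fgfr3-WT, 27306 to 45690 in P28 and 18005 to 84761 in P4M clones. Most of that sum in the cKO clones came from Col1a1 and Col1a2, and the other markers did not all follow it. In Fgfr3-WT, P28 and P4M clones Pdgfra was at most 100, 91.7 and 30.9 CPM and Thy1 at most 4.67, 34 and 0.0198 CPM. Runx2 was at most 94, 150 and 235 CPM in that order. Among the 9 blood cell markers in the count table the sum was 16.5 to 147, 3.54 to 22.4 and 5.26 to 9.17 CPM in that order, most of it from Cd68 and Lyz2, while the pan-leukocyte gene Ptprc did not exceed 0.154 CPM. The sum of the 6 endothelial markers in the count table was 1.07 to 3.78, 0.743 to 5.69 and 7.29 to 250 CPM, the last due to Vwf (at most 237 CPM), and Cdh5 had no count in any clone. Hbb-bs and Tie1, further markers of these lists, were not analysed here. The part of these markers in the results on the 10 factors was not tested.

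The DNA just before the start of Fos, Fosb, Jun and Maff is shown. Over the 14 clones with group means subtracted, Fos with Fosb and Jun with Maff had the highest correlations, as given further on. Each line holds 250 bases upstream of a RefSeq transcript start (build GRCm38.p6), 5′ to 3′ on the strand of the gene. The capitals mark TGACG, the core of the cyclic AMP response element, and TGACATCA, the AP-1 related site known from the Jun promoter, on either strand.
Fos, chr12:85473640-85473889, plus strand: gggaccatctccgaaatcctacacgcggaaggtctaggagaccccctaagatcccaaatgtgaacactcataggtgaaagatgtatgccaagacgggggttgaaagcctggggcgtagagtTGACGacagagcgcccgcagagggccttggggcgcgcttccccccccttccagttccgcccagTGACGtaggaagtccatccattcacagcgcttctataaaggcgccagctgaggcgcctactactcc
Fosb, chr7:19310046-19310295, minus strand: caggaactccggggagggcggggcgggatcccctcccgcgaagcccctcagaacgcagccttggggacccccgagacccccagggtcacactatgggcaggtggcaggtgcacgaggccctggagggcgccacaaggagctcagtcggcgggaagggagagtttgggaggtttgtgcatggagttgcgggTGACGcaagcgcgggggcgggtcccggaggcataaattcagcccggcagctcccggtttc
Jun, chr4:95052223-95052472, minus strand: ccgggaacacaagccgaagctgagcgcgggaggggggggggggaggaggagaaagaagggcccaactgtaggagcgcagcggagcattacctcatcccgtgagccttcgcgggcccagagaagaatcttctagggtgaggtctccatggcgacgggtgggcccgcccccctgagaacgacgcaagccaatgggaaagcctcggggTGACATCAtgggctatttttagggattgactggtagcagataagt
Maff, chr15:79347270-79347519, plus strand: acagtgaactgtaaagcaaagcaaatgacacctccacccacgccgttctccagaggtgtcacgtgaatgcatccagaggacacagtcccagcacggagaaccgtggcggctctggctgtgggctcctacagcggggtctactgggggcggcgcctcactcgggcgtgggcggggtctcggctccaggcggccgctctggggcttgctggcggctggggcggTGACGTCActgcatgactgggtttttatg
In Fos, TGACG began at -129 and at -66 from the start, and in Fosb at -60. TGACATCA lay at -45 in Jun. Maff has 3 RefSeq starts, and at the one shown the 2 overlapping TGACG cores, 1 on each strand, at -29 and -26 form TGACGTCA. Over all 32851 RefSeq windows of this length, 17.8% held TGACG, 2.93% TGACATCA and 1.55% TGACGTCA, searched on both strands. Windows were at hand for 10 starts of 8 of the factors other than Egr1. TGACG was in 6 of the 10 windows (Atf3, Fos, Fosb, Junb and 2 of Maff), TGACATCA in 2 (Jun and Maff) and TATAAA in 1 (Fos, against 12.4% of all windows). The AP-1 consensus TGACTCA (4.46% of all windows), the CArG box of SRF (1.47%) and the p53 decamer motif (7.13%) were in none of the 10, which says only that these letters were not in these windows.

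Levels among the genes were compared in TPM, which are scaled per transcript length. Jund had the highest mean in each group, 119 ± 49.5 TPM (SD, n = 5) in Fgfr3-WT, 157 ± 5.91 (n = 5) in P28 and 281 ± 58.2 (n = 4) in P4M clones, and Fosb the lowest, at 4.02 ± 4.4, 5.72 ± 1.28 and 3.85 ± 0.918 TPM. In Fgfr3-WT the order by mean TPM was Jund, Junb, Fos, Fosl2, Jun, Atf3, Egr1, Fosl1, Maff and Fosb, and the ranges of every pair of neighbors in it overlapped. In P28 the order was Jund, Fosl2, Junb, Jun, Egr1, Fos, Fosl1, Maff, Atf3 and Fosb. Jund (149 to 164 TPM) stood apart from Fosl2 (44.8 to 69.5 TPM) there, and Atf3 (9.76 to 25.8 TPM) from Fosb (3.85 to 6.97 TPM), while the other neighbors overlapped. In P4M the order was Jund, Junb, Atf3, Fosl1, Maff, Egr1, Jun, Fos, Fosl2 and Fosb, where only Fosl2 (16.3 to 39 TPM) and Fosb (3.16 to 5.16 TPM) did not overlap as neighbors.

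Differences were tested by edgeR's quasi-likelihood test over all 17358 genes, and a gene that rose or fell had a Benjamini-Hochberg adjusted p below 0.05. Comparing p53-deficient with Fgfr3-WT clones, 2 of the 10 factors rose and none fell. These were Egr1 and Maff, with the mean of both cKO groups set against Fgfr3-WT. The background was high, since 23.1% of the 17358 genes tested rose and 25.7% fell, so the share of factors that rose was close to that of all genes, while 0 of the 10 fell. In the other 5 settings over all clones 2 to 4 factors rose, and Jund was called in each of them. The median log2 fold change was 0.48 for the 10 factors and -0.05 for all genes. In P28 against Fgfr3-WT, 0 of the 10 factors were called by edgeR, where 19.2% of all genes rose and 19.7% fell. Jun and Egr1, 2 of the 10, had an unadjusted p under 0.05 there, and DESeq2 called the same 2 genes higher. In P4M against Fgfr3-WT, 4 factors rose (Fosl1, Jund, Atf3 and Maff) and none fell, against 22.3% of all genes that rose and 23.6% that fell, and the medians were 1.1 and -0.057. In P4M against P28, 3 factors rose (Junb, Jund and Atf3) and none fell, whereas 3.34% of all genes rose and 3.88% fell (2.3% and 4.64% without TMM scaling). DESeq2 called the same 3 genes higher and Fosl2 lower. The 10 factors had a median log2 fold change of 0.46 there, and all genes -0.013. The P28 and P4M comparisons with Fgfr3-WT share their control clones.

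**Figure D1:**
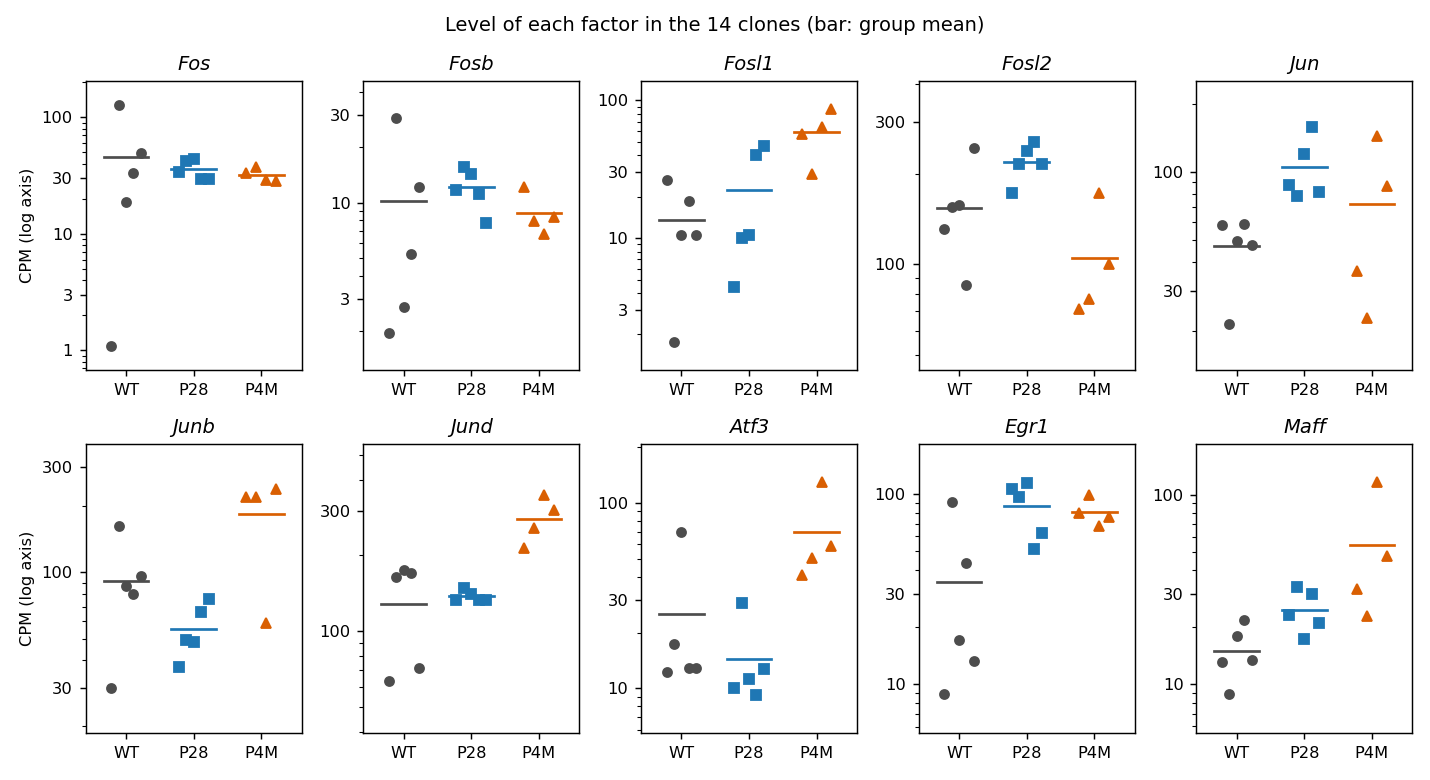
Level of each factor in CPM (log axis) in the 5 Fgfr3-WT, 5 P28 and 4 P4M clones, 1 point per clone, with the group mean as a bar. Fos spans 1.08 to 128 CPM in Fgfr3-WT but 28.3 to 43.8 CPM over the 9 cKO clones, and Jund in P4M (214 to 347 CPM) lies above all other clones.

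Fos (ENSMUSG00000021250, chr12:85473890-85477273, plus strand) encodes the founding member of its family, a strong transcriptional activator. Gene spans here are those of GENCODE M21 on GRCm38, the build of mm10. The level of Fos in Fgfr3-WT replicates 1 to 5 was 1.08, 128, 18.6, 33.4 and 49.1 CPM, in P28 34.1, 41.9, 43.8, 29.8 and 29.8 CPM, and in P4M 33.2, 37.2, 29.2 and 28.3 CPM. The Fgfr3-WT clones thus spanned a 119-fold range, from 33 counts in replicate 1 to 3340 counts in replicate 2, while the P28 and P4M clones spanned 1.47-fold and 1.31-fold. For cKO against Fgfr3-WT the log2 fold change was -0.44 with an SE of 0.611 (adjusted p = 0.576), and the values after ± in the fold changes below are likewise SEs. This value turned to 0.40 without Fgfr3-WT replicate 2, so its sign rests on that clone.

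Fosb (ENSMUSG00000003545, chr7:19302696-19310051, minus strand), the closest relative of Fos, followed a similar course at a lower level. It stood at 1.95, 28.8, 2.71, 5.26 and 12.1 CPM in Fgfr3-WT, 11.7, 15.6, 14.4, 11.2 and 7.74 CPM in P28, and 12.1, 7.94, 6.73 and 8.36 CPM in P4M clones. Fgfr3-WT replicate 2 was again the highest and replicate 1 the lowest of all 14 clones, and the groups overlapped. The log2 fold change of cKO against Fgfr3-WT was 0.02 ± 0.515 (adjusted p = 0.978).

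Fosl1 (ENSMUSG00000024912, chr19:5447547-5455946, plus strand) encodes FRA1, a FOS protein without the strong activation domain of Fos. Its level was 26.6, 1.76, 10.5, 18.5 and 10.6 CPM in Fgfr3-WT, 4.39, 10, 10.6, 40.2 and 46.3 CPM in P28, and 56.6, 29.2, 63.6 and 86.4 CPM in P4M clones. Each P4M clone exceeded each Fgfr3-WT clone, and the P28 clones lay on both sides, with replicates 4 and 5 well above replicates 1 to 3. Fosl1 rose 4.34-fold in P4M against Fgfr3-WT (log2 2.12 ± 0.731, adjusted p = 0.0302). The call was lost without Fgfr3-WT replicate 3 or 5 or P4M replicate 3 or 4 (adjusted p 0.0531 to 0.075). P4M against P28 gave 1.40 ± 0.719 (adjusted p = 0.237), and cKO against Fgfr3-WT 1.42 ± 0.637 (adjusted p = 0.0821, but 0.0341 in DESeq2).

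Fosl2 (ENSMUSG00000029135, chr5:32135801-32157842, plus strand) encodes FRA2, which like FRA1 lacks the strong activation domain of Fos. It stood at 131, 155, 158, 85.3 and 245 CPM in Fgfr3-WT, 173, 217, 239, 256 and 217 CPM in P28, and 71, 76.9, 173 and 100 CPM in P4M clones. P4M replicate 3 was level with the lowest P28 clone, while the other P4M clones were near or below 100 CPM. The log2 fold change of P4M against P28 was -1.06 ± 0.304 (adjusted p = 0.0503), just short of the threshold. It passed without P4M replicate 3 (-1.41, adjusted p = 0.0193) and in 3 other fits that left out Fgfr3-WT replicate 1, 4 or 5. It also passed in DESeq2, with at least 10 counts in every clone, without TMM scaling and with only the groups compared (adjusted p as low as 0.017). Against Fgfr3-WT the log2 fold change was 0.51 ± 0.28 in P28 (adjusted p = 0.167) and -0.56 ± 0.3 in P4M clones (adjusted p = 0.145). The fall in P4M passed only without P4M replicate 3 (adjusted p = 0.0214), and the rise in P28 only without Fgfr3-WT replicate 5 (adjusted p = 0.0444).

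Within the FOS family, Fosl2 made up 45 ± 3.27% (SD, n = 5) of the summed FOS family TPM in P28 and 20.8 ± 6.66% (n = 4) in P4M clones, and Fosl1 16.9 ± 12.7% and 45.6 ± 11.5%. In Fgfr3-WT the share of Fos ran from 1.33% in replicate 1 to 71.8% in replicate 2, and that of Fosl1 from 47.6% to 0.888% in the same clones. The summed TPM was 94.6 ± 45.9 in Fgfr3-WT, 130 ± 24.9 in P28 and 113 ± 24.9 in P4M clones, ranges that overlapped. Shares are given without a test, because they derive from the same values as the fold changes.

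**Figure D2:**
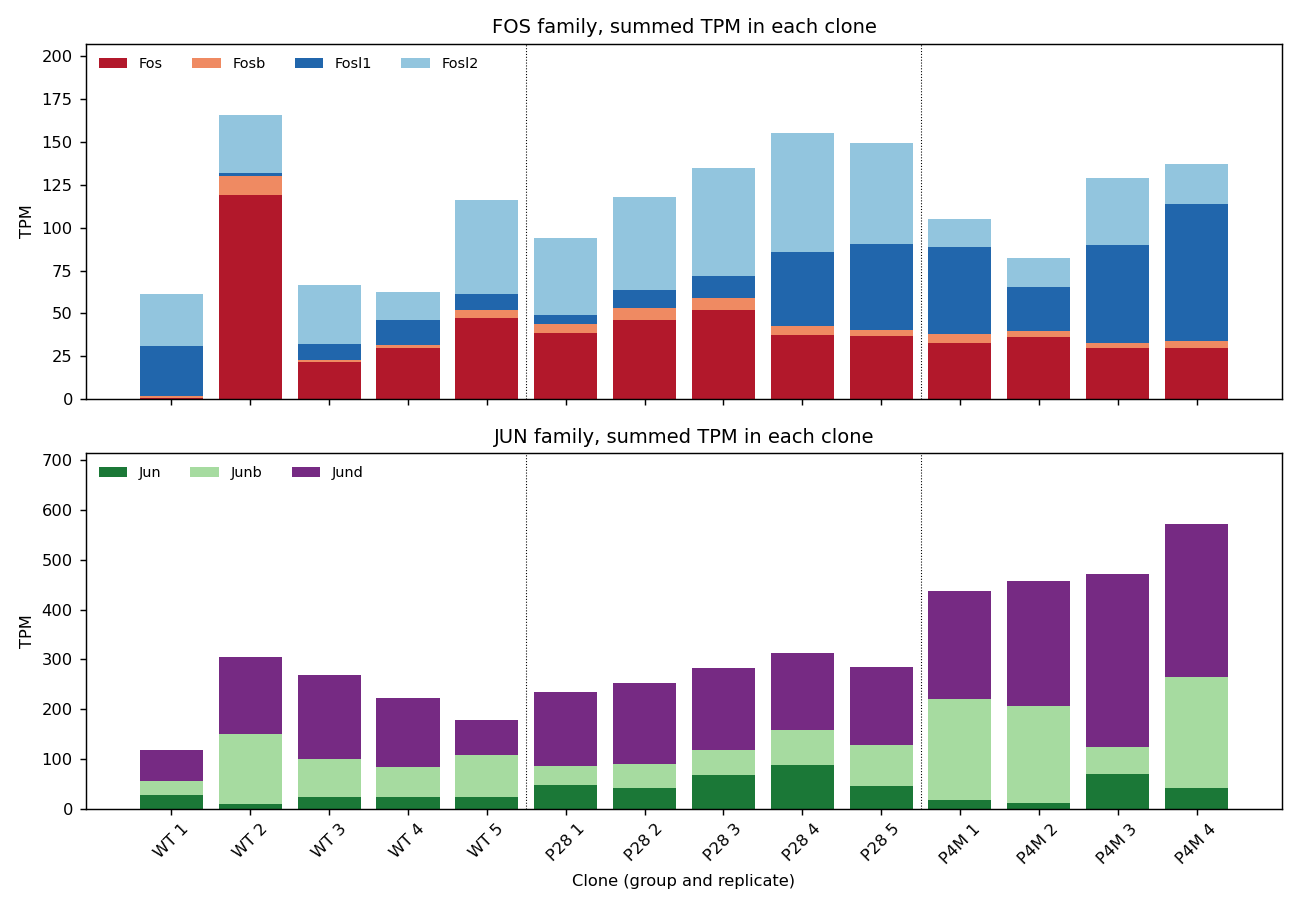
Stacked bars of TPM in each of the 14 clones for the 4 FOS genes (upper panel) and the 3 JUN genes (lower panel), with dotted lines between groups. Fosl1 holds 31 to 58.7% of the FOS bar in P4M clones, and the JUN bars of the P4M clones (437 to 571 TPM) exceed all others (119 to 313 TPM).

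Jun (ENSMUSG00000052684, chr4:95049034-95052222, minus strand) encodes the JUN protein that dimerizes with FOS proteins and, after phosphorylation by JNK kinases, activates its own gene. Its level was 58.2, 21.4, 49.6, 59 and 47.5 CPM in Fgfr3-WT, 87.3, 78.2, 120, 157 and 81.5 CPM in P28, and 36.4, 22.6, 144 and 86.2 CPM in P4M clones. All P28 clones exceeded all Fgfr3-WT clones, and the P4M clones spread over 6.37-fold. The log2 fold change of P28 against Fgfr3-WT was 1.15 ± 0.438 (adjusted p = 0.052). It passed in DESeq2, with at least 10 counts in every clone, without TMM scaling and with only the groups compared (adjusted p as low as 0.013), and without P4M replicate 1, 2 or 3. In P4M against Fgfr3-WT the value was 0.62 ± 0.457 (adjusted p = 0.286), and in P4M against P28 -0.53 ± 0.463 (adjusted p = 0.501).

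Junb (ENSMUSG00000052837, chr8:84974484-84978718, minus strand) encodes a JUN protein that can oppose JUN on some targets. It stood at 29.9, 163, 87.1, 80.1 and 96.8 CPM in Fgfr3-WT, 37.4, 49.5, 48.3, 66.1 and 76.1 CPM in P28, and 220, 219, 58.9 and 240 CPM in P4M clones. Of the P4M clones, replicates 1, 2 and 4 lay above all others, whereas replicate 3 was within the P28 range. Junb rose 3.33-fold in P4M against P28 (log2 1.73 ± 0.443, adjusted p = 0.0337). Without P28 replicate 1, 2, 3 or 4 or P4M replicate 1, 2 or 4 the adjusted p was 0.0558 to 0.0872, and without P4M replicate 3 the log2 fold change was 2.03. Against Fgfr3-WT, the log2 fold change was -0.72 ± 0.417 in P28 (adjusted p = 0.189) and 1.02 ± 0.439 in P4M clones (adjusted p = 0.0737).

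Jund (ENSMUSG00000071076, chr8:70698949-70700616, plus strand) encodes the JUN protein that most resting cells keep at a steady level. Its level was 63.2, 164, 175, 170 and 71.5 CPM in Fgfr3-WT, 133, 149, 140, 133 and 133 CPM in P28, and 214, 258, 347 and 302 CPM in P4M clones. The P28 clones differed by only 1.13-fold, and every P4M clone exceeded every clone of both other groups. Jund rose 2.18-fold in P4M against Fgfr3-WT (log2 1.12 ± 0.285, adjusted p = 0.00629), a call kept in all 14 fits that left out a clone (adjusted p at most 0.0201). Against P28 it rose 2.04-fold (log2 1.03 ± 0.285, adjusted p = 0.045), and this call was lost without any 1 of the 9 cKO clones (adjusted p 0.0626 to 0.1). P28 against Fgfr3-WT gave 0.09 ± 0.269 (adjusted p = 0.81). For cKO against Fgfr3-WT the log2 fold change was 0.61 ± 0.244 (adjusted p = 0.0531), and it passed in DESeq2, with RLE size factors, with at least 10 counts in every clone, without TMM scaling and without a filter (adjusted p 0.0235 to 0.0484), and without Fgfr3-WT replicate 2, 3 or 4.

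Together the JUN genes summed to 219 ± 73.8 TPM (SD, n = 5) in Fgfr3-WT, 273 ± 30.4 (n = 5) in P28 and 484 ± 59.7 (n = 4) in P4M clones. Jund held 53.8 ± 9.77%, 58.1 ± 6.19% and 58.1 ± 10.8% of that sum. The share of Jun was 20.9 ± 5.12% in P28 and 7.12 ± 5.48% in P4M, and that of Junb 21 ± 4.87% and 34.8 ± 15.9%. In P4M replicate 3, Junb held 11.4% and Jun 14.7%, unlike the other P4M clones, where Junb held 38.8 to 46.3% and Jun 2.32 to 7.39%.

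**Figure D3:**
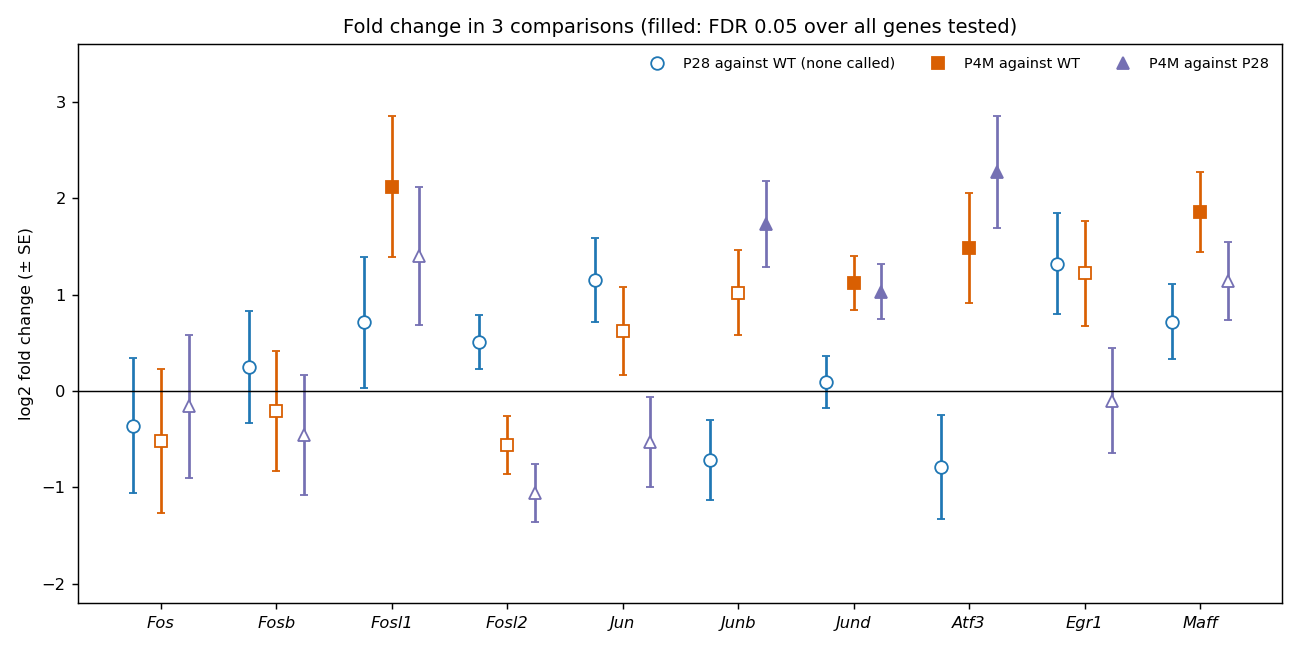
Log2 fold change of each factor with its SE from the fit across all genes, for P28 against Fgfr3-WT (circles), P4M against Fgfr3-WT (squares) and P4M against P28 (triangles), filled where the adjusted p was below 0.05. Filled points are Fosl1, Jund, Atf3 and Maff in P4M against Fgfr3-WT and Junb, Jund and Atf3 in P4M against P28, all above 0.

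Atf3 (ENSMUSG00000026628, chr1:191170296-191218039, minus strand) encodes a stress-induced bZIP protein that dimerizes with JUN proteins. It stood at 12.3, 17.4, 69.9, 12.8 and 12.8 CPM in Fgfr3-WT, 10.1, 28.9, 11.3, 9.21 and 12.7 CPM in P28, and 40.7, 50.4, 130 and 58.3 CPM in P4M clones. All P4M clones exceeded all P28 clones, and Fgfr3-WT replicate 3 alone reached into the P4M range. Atf3 rose 4.84-fold in P4M against P28 (log2 2.27 ± 0.583, adjusted p = 0.0339). That call was kept without P28 replicate 2 or any Fgfr3-WT clone and lost without any of the other 8 cKO clones (adjusted p 0.0527 to 0.0902). Against Fgfr3-WT it rose 2.79-fold in P4M (log2 1.48 ± 0.573, adjusted p = 0.0489). There the log2 fold change was 2.33 without Fgfr3-WT replicate 3 (adjusted p = 0.00127) and 1 without P4M replicate 3 (adjusted p = 0.185). The call stayed without Fgfr3-WT replicate 3, P28 replicate 2 or P4M replicate 1 and was lost in the other 11 fits that left out a clone. The call against P28 was also lost without a filter on low counts (adjusted p = 0.055), and that against Fgfr3-WT without the filter or with only the groups compared (up to 0.0828).

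Egr1 (ENSMUSG00000038418, chr18:34859823-34864984, plus strand) encodes a zinc finger factor, the only one of the 10 that is not a bZIP protein. Its level was 8.89, 90.8, 17.1, 43.2 and 13.3 CPM in Fgfr3-WT, 107, 96.5, 115, 51.6 and 62.1 CPM in P28, and 79.6, 98.8, 68.3 and 75.9 CPM in P4M clones. All 9 cKO clones lay at or above 51.6 CPM, and of the Fgfr3-WT clones only replicate 2 did so. Egr1 rose 2.41-fold in cKO against Fgfr3-WT (log2 1.27 ± 0.481, adjusted p = 0.0425). Without Fgfr3-WT replicate 2 the log2 fold change was 2.01 (adjusted p = 0.0017), and the call also stayed without P28 replicate 4 (adjusted p = 0.046), but it was lost in the 12 other fits that left out a clone (0.0505 to 0.0978) and without a filter on low counts (0.0557). For P28 and P4M alone the log2 fold changes against Fgfr3-WT were 1.32 ± 0.525 (adjusted p = 0.0614) and 1.22 ± 0.547 (adjusted p = 0.0841). P4M against P28 gave -0.10 ± 0.547 (adjusted p = 0.929).

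Maff (ENSMUSG00000042622, chr15:79346621-79359076, plus strand) encodes a small MAF protein, which has a bZIP domain but no activation domain and pairs with partners such as NRF2. It stood at 13.1, 8.88, 17.9, 21.9 and 13.5 CPM in Fgfr3-WT, 23.1, 32.7, 17.3, 29.9 and 21 CPM in P28, and 32, 23, 116 and 47.5 CPM in P4M clones. All P4M clones exceeded all Fgfr3-WT clones, with replicate 3 far above the rest. Maff rose 2.44-fold in cKO against Fgfr3-WT (log2 1.29 ± 0.361, adjusted p = 0.00982) and 3.63-fold in P4M against Fgfr3-WT (log2 1.86 ± 0.414, adjusted p = 0.00295), and both calls held in each of the 14 fits that left out a clone. Without P4M replicate 3, the log2 fold change was 1.19 in P4M against Fgfr3-WT (adjusted p = 0.009). P4M against P28 gave 1.14 ± 0.409 (adjusted p = 0.101) and 0.46 without that clone.

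Some of these genes share transcribed sequence with a neighbor on the opposite strand, and the libraries did not keep strand. By GENCODE M21 on GRCm38, Jund shared 919 bases (55.1% of its span) with Gm11175, Fosl1 2767 bases (32.9%) with Ccdc85b, Jun 689 bases (21.6%) with Junos and Junb 351 bases (8.29%) with Prdx2. Gm11175 had at most 22 counts in a clone and Junos at most 74, but Ccdc85b had 1612 to 4525 and Prdx2 2376 to 8023. Reads from the shared stretch of such a pair cannot be told apart. The authors counted only non-ambiguous reads, so such reads may be missing from the counts of both genes, including those given here.

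Fos also had the widest spread of the 10 factors among Fgfr3-WT clones. The SD of its log2 CPM was 2.58 in Fgfr3-WT, above that of 97.1% of all genes tested, but 0.26 in P28 and 0.18 in P4M clones, below the medians of all genes there (0.33 and 0.31). Fosb (1.58, 0.39 and 0.35), Egr1 (1.36, 0.51 and 0.22) Jund (0.74, 0.08 and 0.30), Fosl1 (1.49, 1.44 and 0.66) and Atf3 (1.07, 0.66 and 0.73) also had a larger SD in Fgfr3-WT than in both cKO groups. Thus 6 of the 10 factors had their largest SD in Fgfr3-WT, as did 66.1% of all genes tested. Fosl2, Jun, Junb and Maff had their largest SD in P4M, with SDs of 0.58, 1.2, 0.97 and 1.01. These SDs are descriptions without a test, over 4 or 5 clones each.

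**Figure D4:**
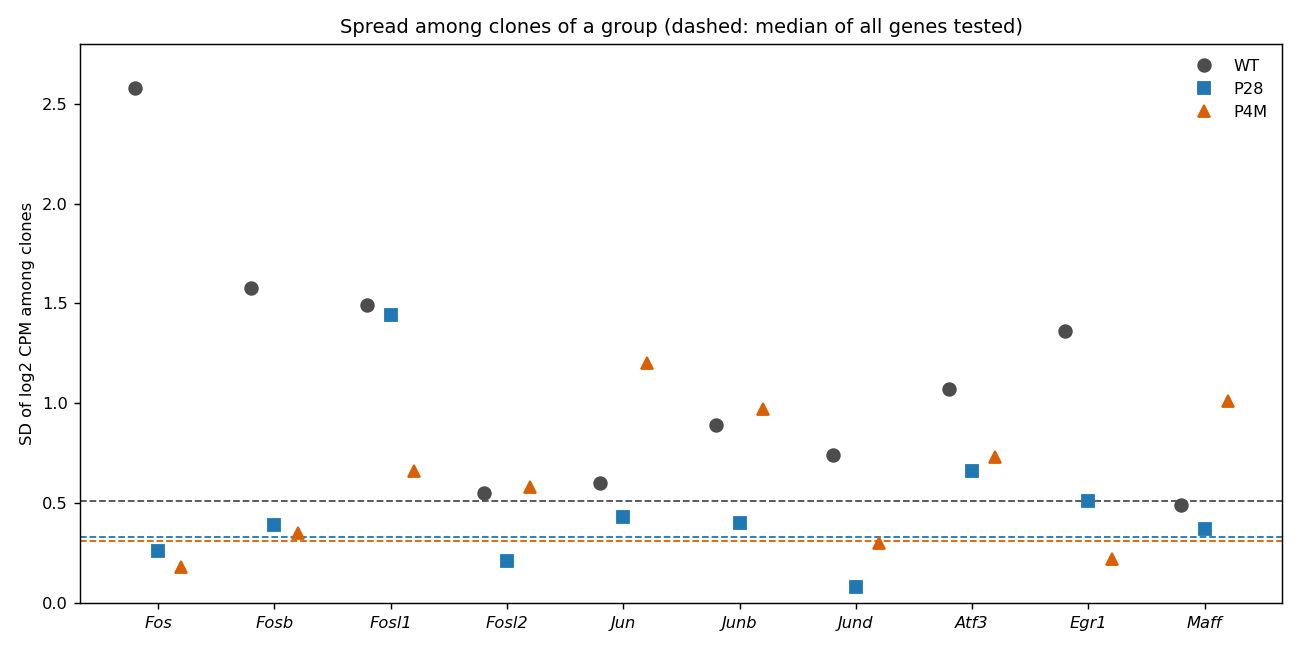
SD of log2 CPM among the clones of a group for each factor (points) and the median of this SD over the 17358 genes tested (dashed lines, 0.51, 0.33 and 0.31 for Fgfr3-WT, P28 and P4M). Fos has 2.58 in Fgfr3-WT against 0.26 and 0.18 in the cKO groups, whereas Jun and Maff are most spread in P4M (1.2 and 1.01).

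The clones at the ends of the range were the same for several factors. Fgfr3-WT replicate 2 had the highest Fos, Fosb, Junb and Egr1 and the lowest Fosl1, Jun and Maff of its group. Fgfr3-WT replicate 1 had the lowest Fos, Fosb, Junb, Jund and Egr1 and the highest Fosl1. Within P28, replicates 4 and 5 had more Fosl1 (40.2 and 46.3 CPM) and less Egr1 (51.6 and 62.1 CPM) than replicates 1 to 3 (at most 10.6 and at least 96.5 CPM). In P4M, replicate 3 had the highest Fosl2, Jun, Jund, Atf3 and Maff and the lowest Junb, Fosb and Egr1.

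Correlations of log2 CPM after subtracting each group mean describe this over the 14 clones and 45 pairs of factors, without a p-value. Clones of a group share the number in their column headers, and the labels do not tie them to animals. Fos and Fosb had r = 0.83 (Spearman rho = 0.75), with 0.85 within Fgfr3-WT and 0.67 within the cKO clones, and r = 0.64 without the 2 clones farthest from the median of Fos. Fos and Egr1 had r = 0.74 (rho = 0.66), but 0.10 without the same 2 clones, Fgfr3-WT replicates 1 and 2, so that relation rests on them. Jun and Maff had r = 0.81 (rho = 0.69), with 0.81 within Fgfr3-WT and 0.81 within the cKO clones, and 0.58 without P4M replicates 2 and 3. Without subtracting group means, the cKO clones gave 0.31. Among the P28 clones the pair did not rise together. There replicate 2 had the lowest Jun (78.2 CPM) and the highest Maff (32.7 CPM), and replicate 3 the lowest Maff (17.3 CPM) but 120 CPM of Jun. Fosl1 and Egr1 were opposed, at r = -0.72 (rho = -0.65), with -0.75 within Fgfr3-WT, -0.89 within cKO and -0.51 without Fgfr3-WT replicate 2 and P28 replicate 1.

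**Figure D5:**
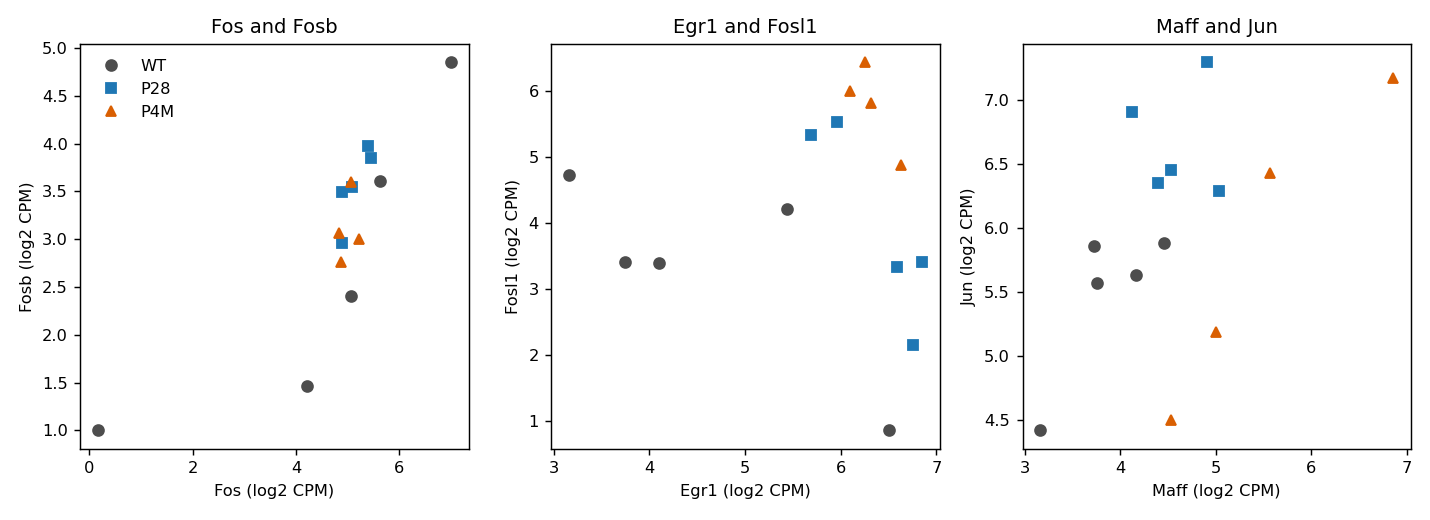
Log2 CPM of 3 pairs of factors, 1 point per clone (Fgfr3-WT circles, P28 squares, P4M triangles). Fosb climbs with Fos (group-centred r = 0.83), Fosl1 declines with Egr1 within each group (r = -0.72), and Jun climbs with Maff (r = 0.81), though not among the P28 clones.

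Outside the 10 factors, likeness was taken over the 14 clones without subtracting group means, so differences between groups enter these values. The 3 genes most like Fos were Apool (r = 0.963), Fkbp7 (0.957) and Fmr1 (0.936). They came down to 0.76, 0.62 and 0.51 without Fgfr3-WT replicates 1 and 2. Most like Fosl1 were Gas2l1 (0.920), Upp1 (0.917) and Yrdc (0.896), at 0.84 to 0.87 without Fgfr3-WT replicate 2 and P28 replicate 1. Upp1 was low, at 0.581, 0.88 and 1.78 CPM on average in Fgfr3-WT, P28 and P4M clones. Gas2l3 (0.881), Cav1 (0.862), the caveolin of caveolae, and Tnfaip6 (0.852), a hyaluronan-binding secreted protein, were most like Jun. Their values were 0.78, 0.76 and 0.81 without Fgfr3-WT replicate 2 and P4M replicate 2. Tnfaip6 was low, at 0.208, 1.23 and 0.827 CPM on average in Fgfr3-WT, P28 and P4M clones. Egr1 was followed most closely by Map2k5 (0.926), a kinase of the ERK5 pathway, Lsp1 (0.917) and Adamtsl3 (0.914). Without Fgfr3-WT replicates 1 and 5 these came down to 0.77, 0.79 and 0.75. Adamtsl3 stood at 23.5 CPM on average in Fgfr3-WT, 155 in P28 and 150 in P4M clones.

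Upstream of the 10 factors, the MAP kinases and the kinases that act on AP-1 and EGR1 were higher in the cKO clones wherever they were called. Of 23 tested, 13 rose in cKO against Fgfr3-WT and the other 10 were not called, with 12 higher in P4M and 11 in P28 alone. These are 56.5%, 52.2% and 47.8% of the list, where 23.1%, 22.3% and 19.2% of all genes rose. The 11 in P28 became 7 without Fgfr3-WT replicate 2 or 5 or P28 replicate 5, and 5 with only the groups compared. The list had a median log2 fold change of 0.44. Mapk14, the p38 alpha kinase, rose from 48.9 ± 11.3 CPM (SD, n = 5) to 92.9 ± 11.2 in P28 and 69.7 ± 5.64 in P4M clones (log2 0.72 ± 0.14, adjusted p = 0.000957). Mapk8, which encodes JNK1, rose from 23.2 ± 3.84 to 36.5 ± 6.65 and 37.6 ± 4.53 CPM (log2 0.68 ± 0.14, adjusted p = 0.0015). Between P4M and P28 only Map2k1, the MEK1 kinase, was called of these 23, and it was higher in P4M (log2 0.57 ± 0.136, adjusted p = 0.0261). None of the 23 was called there without P28 replicate 3 or P4M replicate 3 or 4.

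Of 8 genes for SRF and its cofactors, 4 (50%, against 23.1% of all genes) rose in cKO against Fgfr3-WT and the other 4 were not called. Srf stood at 25.5 ± 9.49 CPM in Fgfr3-WT, 90.7 ± 21 in P28 and 54 ± 6 in P4M clones (log2 1.45 ± 0.216, adjusted p = 0.000157). Elk4, a ternary complex factor that binds beside SRF, rose by less (log2 0.54 ± 0.105, adjusted p = 0.000922). In P4M against P28, 2 of the 8 (25%, against 3.34% of all genes) rose, among them Elk4, and 0 or 1 were called without Fgfr3-WT replicate 3 or any 1 cKO clone other than P28 replicate 5.

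Among the relatives of Egr1 and its corepressors, the 4 genes tested, Egr2, Egr3, Nab1 and Nab2, all rose in cKO against Fgfr3-WT (100%, against 23.1% of all genes). Only 2 were called without Fgfr3-WT replicate 2, 3 or 5, and with at least 10 counts in every clone. Nab2, which binds EGR proteins and restrains them, stood at 97 ± 41.4, 181 ± 43.5 and 140 ± 25.7 CPM in Fgfr3-WT, P28 and P4M clones (log2 0.72 ± 0.238, adjusted p = 0.0232).

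Other immediate early genes went both ways, with 15 of 29 higher (51.7%) and 5 lower (17.2%) in cKO against Fgfr3-WT and a median of 0.76, where 23.1% of all genes rose and 25.7% fell. Myc stood at 18.3 ± 8.45 CPM in Fgfr3-WT, 65.4 ± 16.5 in P28 and 135 ± 13.1 in P4M clones (log2 2.36 ± 0.272, adjusted p = 2.88e-05). Nr4a1, an orphan nuclear receptor, rose from 2.88 ± 1.27 to 26.2 ± 10.1 and 9.57 ± 4.09 CPM (log2 2.46 ± 0.374, adjusted p = 0.000188). The matricellular gene Ccn2 fell from 3869 ± 3102 to 252 ± 200 and 147 ± 54.4 CPM (log2 -4.33 ± 0.681, adjusted p = 0.000238), and Btg2, a p53-activated antiproliferative gene, fell as well (log2 -2.75 ± 0.484, adjusted p = 0.000516). In P4M against P28, 5 of the 29 rose and 3 fell (17.2% and 10.3%, against 3.34% and 3.88% of all genes), and those 8 calls became 1 to 4 without any 1 cKO clone other than P28 replicate 5.

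Of 21 further bZIP partners of AP-1 tested, 5 rose and 5 fell in cKO against Fgfr3-WT (23.8% each), near the 23.1% and 25.7% of all genes. Atf2, a partner of JUN, rose (log2 0.54 ± 0.126, adjusted p = 0.00314), and Ddit3, the CHOP factor of the stress response, fell (log2 -1.33 ± 0.298, adjusted p = 0.00256). Ddit3 stood at 361 ± 174 CPM in Fgfr3-WT, 83.9 ± 31 in P28 and 246 ± 76.4 in P4M clones. It was lower in P28 but not called in P4M against Fgfr3-WT, and it rose in P4M against P28. Maf, a large MAF protein, stood at 190 ± 35.5 CPM in P28 and 51.4 ± 23.2 in P4M clones (log2 -1.89 ± 0.332, adjusted p = 0.00894), while Cebpb went from 67.1 ± 18.6 to 152 ± 13.8 CPM (log2 1.18 ± 0.234, adjusted p = 0.013). In P4M against P28, 4 of the 21 rose and 1 fell (19% and 4.76%, against 3.34% and 3.88% of all genes). Those 5 calls became 2 or 3 without P28 replicate 1 or 3 or P4M replicate 1, 3 or 4.

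Of 18 genes known as AP-1 targets, 6 rose and 4 fell in cKO against Fgfr3-WT (33.3% and 22.2%, against 23.1% and 25.7% of all genes). In P4M against P28 1 rose (5.56%, against 3.34%). Plau, the urokinase gene, rose (log2 2.88 ± 0.569, adjusted p = 0.00112), as did the hyaluronan receptor Cd44 (log2 1.45 ± 0.323, adjusted p = 0.00254). Spp1, or osteopontin, fell from 2109 ± 1062 to 416 ± 129 and 834 ± 221 CPM (log2 -1.84 ± 0.288, adjusted p = 0.000227), and the collagenase-activating protease Mmp3 fell (log2 -4.48 ± 0.958, adjusted p = 0.00193). Vegfa, the vascular growth factor, was the gene called in P4M against P28 (log2 1.33 ± 0.295, adjusted p = 0.0196), but none of the list was called there without P4M replicate 3 or 4.

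The heat shock genes, which mark another stress response, gave 17 tested genes in the same libraries. In cKO against Fgfr3-WT 2 rose and 3 fell (11.8% and 17.6%, against 23.1% and 25.7% of all genes), with a median of 0.024. In P4M against P28 1 rose and 1 fell (5.88% each, against 3.34% and 3.88%), and 0 or 1 were called without P28 replicate 1, 3 or 4 or P4M replicate 1, 2 or 4. Their summed level was 4917 to 7310 CPM in Fgfr3-WT, 5106 to 6537 in P28 and 6789 to 7426 in P4M clones. Hspb1, a small heat shock protein, stood at 0.0894 ± 0.0782 CPM in Fgfr3-WT, a mean within the range that a count of 0 allows. It stood at 58.1 ± 42.2 and 38.9 ± 19.9 CPM in P28 and P4M clones. Dnaja1 was the other gene that rose, while Hsph1, Bag3 and Hspe1 fell. Hsph1 went from 260 ± 94.1 CPM in Fgfr3-WT to 139 ± 27.9 in P28 and 64.9 ± 11.8 in P4M clones. The part of the heat shock genes in the levels of the 10 factors was not tested.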

How the data were processed

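Bulk RNA-seq of 14 clones was prepared with the SMART-Seq v4 and Nextera XT kits, without strand, and read single-end for 50 cycles. The authors used TopHat and Bowtie2 for alignment to mm10, HTSeq for counting non-ambiguous reads, and DESeq2 (versions not given in the sources used here). The deposited count table holds raw counts. The log2 values (rlog), TPM and FPKM were deposited as normalized by the authors. TPM served for levels between genes and rlog for correlations as an alternative. Depth-normalized counts and expected counts were not used.

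Counts were fitted in R 4.3.3 with edgeR 4.0.16 (filterByExpr, TMM, robust quasi-likelihood, 3 group means, all 14 clones), and p-values were adjusted by Benjamini-Hochberg over 17358 genes, with calls at 0.05. The 4 contrasts were both cKO groups, P28 or P4M against Fgfr3-WT, and P4M against P28. Log2 CPM had a prior count of 2. A count of 0 allows up to 3 counts, 0.0568 to 0.117 CPM, and such limits cover counting error only. The steps were tested on simulated data. Alternatives were DESeq2 1.42.0, RLE or no scaling, no filter, at least 10 counts in every clone, only the groups compared, and each clone left out. No batch term was possible, since the number in the column headers and genotype coincide. Replicate numbers are running numbers. No pair of clones was alike within sampling noise.

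The 10 factors and the 13 gene lists were chosen with earlier results of these data known. Named besides the factors are Trp53, per list the called genes with the lowest adjusted p in each direction (mean log2 CPM of at least 2, up to 2 for all cKO clones against Fgfr3-WT, 1 for P4M against P28), and the 3 genes most correlated with Fos, Fosl1, Jun and Egr1. Other genes of the lists were named after their values were seen. Upstream sequences are from RefSeq (GRCm38.p6). Figures were drawn with matplotlib 3.10.9 in Python 3.11.15.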

Additional observations from a re-analysis of the deposited data

Results flagged for a closer look

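In 30 groups of clones, 10 factors in 3 groups, the gap of the highest or lowest clone was set against the range of its group. Both were taken in log2 CPM, and chance passes this measure in about 1 of 20 groups. It picked out 4. Jun in Fgfr3-WT replicate 2 was at 21.4 CPM, the other 4 clones at 47.5 CPM or more. Junb in P4M replicate 3 was at 58.9 CPM, below 219 CPM in the next clone. Atf3 in Fgfr3-WT replicate 3 was at 69.9 CPM, above 17.4 CPM in the next. Atf3 in P28 replicate 2 was at 28.9 CPM, above 12.7 CPM in the next.

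The effect against Fgfr3-WT differed between P4M and P28 for 3 factors by the test of the difference itself, which equals P4M against P28. The log2 difference was 1.73 for Junb, 1.03 for Jund and 2.27 for Atf3.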

How the results depend on the processing

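Over all alternatives, 674 of 790 fold changes of single factors kept their direction and their side of the threshold, 36 gained a call and 25 changed sign. The other 55 lost a call. Most of the 790 had no call to lose, so 790 is not the base for these losses. Of the 14 fits that left out a clone, 12 lost the cKO call of Egr1 and 0 that of Maff. The P4M calls relative to Fgfr3-WT were lost in 11 for Atf3, 4 for Fosl1 and 0 for Jund and Maff. Those relative to P28 were lost in 9 for Jund, 8 for Atf3 and 7 for Junb. The cause was not tested. None of those that changed sign was a call. With DESeq2, 4 factors were called in cKO against Fgfr3-WT and 2 in P28 against Fgfr3-WT. P28 against Fgfr3-WT also had 2 calls without TMM scaling, 1 with at least 10 counts in every clone and 1 with only the groups compared. Leaving out a clone gave 1 to 3 factors in cKO against Fgfr3-WT, 0 to 1 in P28 against Fgfr3-WT, 2 to 5 in P4M against Fgfr3-WT and 0 to 4 in P4M against P28. All genes called in P4M against P28 numbered 1254, but 2814 with DESeq2, 3051 with only the groups compared, and 480 to 2132 without a clone. Without TMM scaling, 33.2% of the genes called in P4M against P28 were higher, against 46.3% with it, and the median of all genes moved by less than 0.1 in every comparison. Counts of called genes within the lists moved by over 1.5 times in 84 of 790 cases, mostly in P4M against P28.

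Sign changes in cKO against Fgfr3-WT were found for Fosl2 in DESeq2 (0.001), without TMM scaling (0.03) and without a filter (0.04). With each clone left out in turn, the log2 fold changes of the factors that changed sign spanned these ranges. In cKO against Fgfr3-WT they were -0.79 to 0.40 for Fos, -0.28 to 0.90 for Fosb, -0.19 to 0.20 for Fosl2 and -0.10 to 0.46 for Junb. In P28 against Fgfr3-WT they were -0.72 to 0.49 for Fos, -0.06 to 1.13 for Fosb, -0.11 to 0.23 for Jund and -1.23 to 0.06 for Atf3. In P4M against Fgfr3-WT they were -0.86 to 0.32 for Fos and -0.50 to 0.67 for Fosb, and in P4M against P28 -0.22 to 0.04 for Egr1. The clone behind the positive values of Fos was Fgfr3-WT replicate 2. The shares of the FOS and JUN genes are the same in FPKM by construction, since TPM is FPKM rescaled per clone, so FPKM was no check of them. No paired analysis was possible because the labels give the clones of different groups no shared replicate numbers.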
